A study of Rattus norvegicus with 9 samples.

Results

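Kidney RNA of the Dahl salt-sensitive rat (Dahl S) was compared with that of the spontaneously hypertensive rat (SHR). The comparison rests on 6 of the 9 arrays of the study, chosen by strain in the sample titles: 3 Dahl S and 3 SHR, 1 array per rat. The other 3 arrays carried kidney RNA of the Dahl salt-resistant rat (Dahl R) and served in the shared estimate of the spread and, for a few genes, as levels beside the other strains. All rats were males aged 53 days that were weaned at day 30 and then fed a diet with 0.3% salt, and 1 µg of each total RNA was labelled with Cy3 for a one-colour array of coding and long noncoding transcripts. No group carried a transgene or received a drug. The labels name no substrain, breeder, blood pressure or hour of tissue collection, and do not say whether rats shared a litter, and p-values here reflect only how far these samples spread, which may be technical.

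Dahl S rats develop hypertension and kidney damage when they eat salt, whereas SHR become hypertensive with age without added salt. Both are inbred models of human essential hypertension, but the Dahl lines were bred from Sprague-Dawley stock and SHR from Wistar stock, so the strains differ at many loci besides those that set blood pressure. The kidney retains or excretes salt through transporters arranged along the nephron, from the proximal tubule over the thick ascending limb to the distal tubule and collecting duct, under control of angiotensin, aldosterone, vasopressin and locally made lipids.

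A level here is a probe's log2 signal minus the log2 of the 75th percentile of its array, and a difference is Dahl S minus SHR, given ± its standard error (SE) from limma. Levels of different probes are not compared. Of the genes named below, Trpv5, RT1-O1, Kcnmb4, Endog, Lcn2, Ccl7, Fgg, Cx3cr1, Loxl2, Thra, Klf9, Ciart, Epb42, Epo, Ggn and Ccnd2 were well above background on all 3 Dahl S arrays and 2 SHR arrays, and Krt20 on 2 arrays of each strain. SHR replicate 3 stood apart: 43.1% of its probes were well above background, against 60.1% to 70.3% on the other 8 arrays, its median local background was 88 against 43 to 45, and 1939 tested probes had no usable spot there. Among the probes dimmest on the other SHR arrays, SHR replicate 3 exceeded their mean by a median of 0.85, and among the brightest by 0.27. Dahl S replicate 1 correlated with the other Dahl S arrays at r of 0.971, against 0.996 between those arrays, across probes, which are not independent replicates. No Dahl S array shared a slide with an SHR array, so no difference between these strains could be taken within a slide. Dahl R replicate 1 shared a slide with the Dahl S arrays, and Dahl R replicates 2 and 3 shared another with SHR replicates 1 and 2. SHR replicate 3 was the only array on its slide. Slide and strain could therefore be separated only through Dahl R, and not for SHR replicate 3. In whole tissue, fewer cells of a type and less RNA per cell cannot be told apart.

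Of 15754 tested probes, 2621 (16.6%) passed an adjusted p of 0.05: 1191 (7.56%) were higher in Dahl S and 1430 (9.08%) were lower. Without SHR replicate 3, 4306 of 15666 probes (27.5%) passed, and 2534 probes (16.2%) passed both ways. Of 10464 tested genes, 803 (7.67%) were higher in Dahl S and 921 (8.8%) were lower, around a median difference of -0.06. The counts of each gene list below are to be read beside these shares. Most differences were modest: 1098 of the called probes reached 2-fold, 297 reached 4-fold and 48 reached 16-fold. The probes follow a reference rat sequence, and the files hold no probe sequences, so the part played by strain differences in sequence under a probe was not tested.

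**Figure D1:**
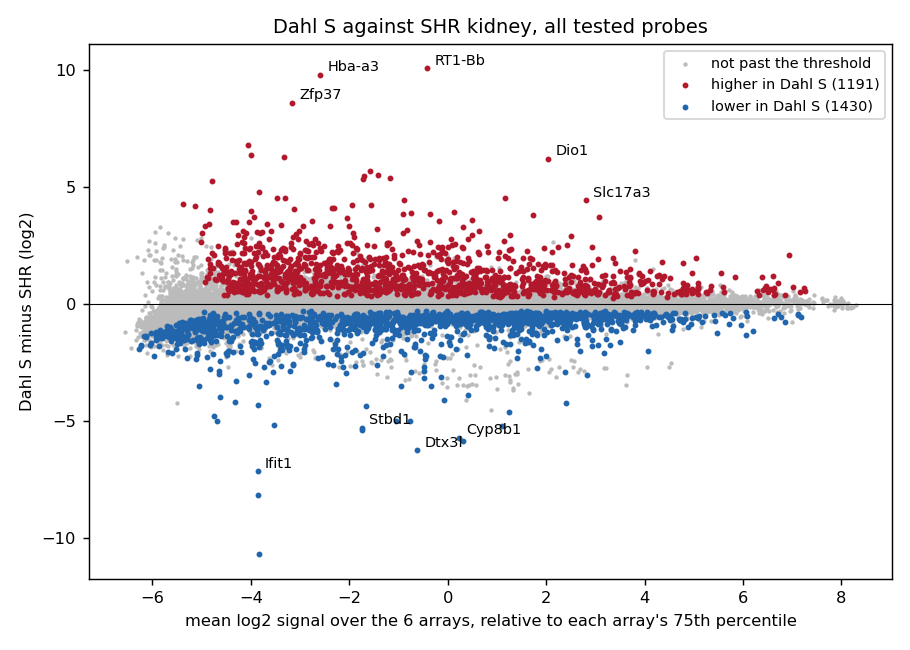
Difference between Dahl S and SHR kidneys (vertical, log2) against the mean level over the 6 arrays (horizontal, log2 relative to each array's 75th percentile) for 15754 probes, with probes past an adjusted p of 0.05 in red (1191 higher in Dahl S) and blue (1430 lower). RT1-Bb at the top and Ifit1 at the bottom are plotted at their fitted differences, although RT1-Bb was above background on 1 SHR array and Ifit1 on 0 Dahl S arrays.

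The 12 largest differences in each direction, among genes that passed with and without SHR replicate 3 and whose strains did not overlap, were ordered by fitted difference, which is no measured size where a strain was not above background. Non-overlapping strains were common, at 39.7% of all genes, and mark no gene out. Among those higher in Dahl S were RT1-Bb of antigen presentation, Hba-a3 of haemoglobin, Dio1 of thyroid hormone activation and Slc17a3 of anion transport. Among those lower were Ifit1 and Dtx3l of the interferon response, Cyp8b1 of bile acid synthesis, Ephx2 of epoxide breakdown and Stbd1 of glycogen handling. Such single genes do not stand for the rest of their pathways. In 22 of the 24 genes the Dahl R mean was nearer to Dahl S than to SHR. The exceptions were Galnt13 and Akr1b7, at -5.40 and -7.60 in Dahl R. Over the 2534 probes called both ways, the Dahl R mean was nearer to Dahl S for 81.8%.

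**Figure D2:**
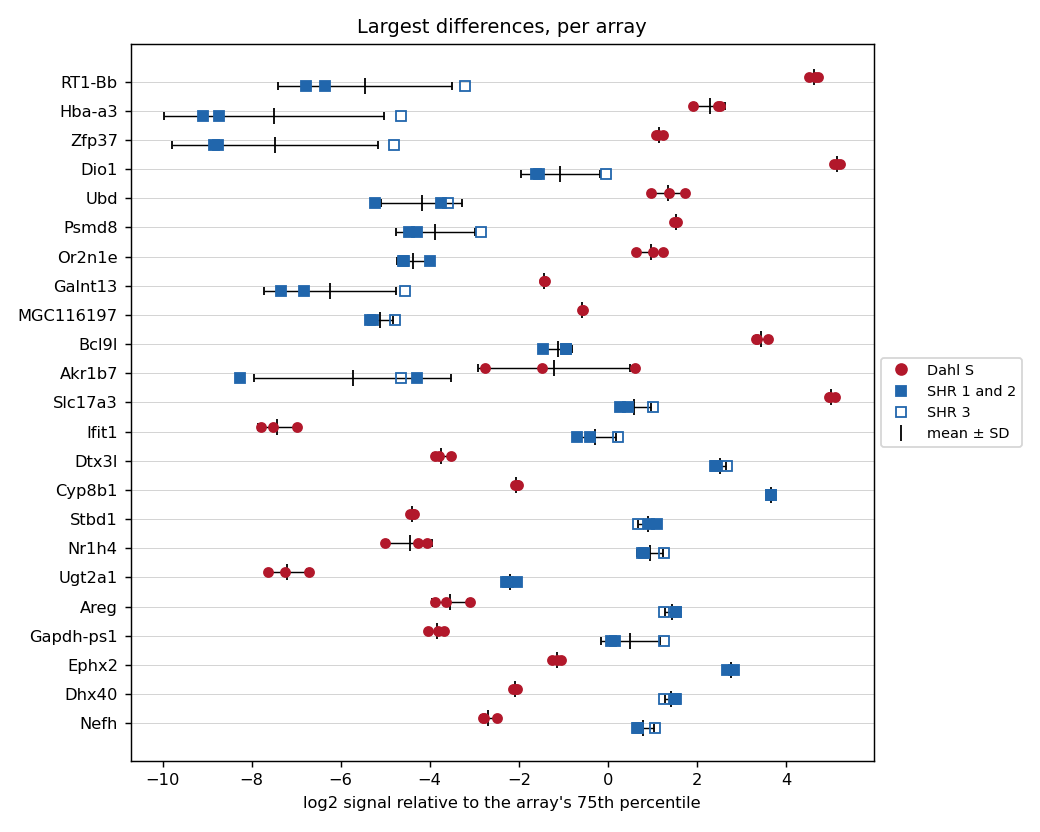
Level (log2 relative to the array's 75th percentile) of 23 of the 24 genes with the largest differences on each Dahl S array (red circles) and each SHR array (blue squares, SHR replicate 3 open), with the mean ± SD of each strain. The strains do not overlap in any of these genes, and SHR replicate 3 lies above the other SHR arrays for the dimmest probes, such as RT1-Bb, Hba-a3 and Zfp37.

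RT1-Bb, a class II histocompatibility beta chain that presents peptides to helper T cells, had levels of 4.71, 4.66 and 4.51 on the Dahl S arrays, against -6.36, -6.79 and -3.22 on the SHR arrays. It was high on every Dahl S array and well above background on only 1 SHR array (difference 10.08 ± 0.81, adjusted p = 0.000193). Its partner RT1-Ba, the alpha chain and the nearest tested gene before it, had levels of 5.45, 5.51 and 5.53 in Dahl S and 5.52, 5.47 and 5.48 in SHR (difference 0.00 ± 0.08, adjusted p = 0.979). Hba-a3, an alpha-globin gene, was at 2.46, 2.53 and 1.92 in Dahl S, against -8.74, -9.09 and -4.65 in SHR, where no array was well above background. Dahl S exceeded SHR at least 280-fold (adjusted p = 0.000814), where the bound sets the Dahl S mean against, on each SHR array, the higher of the probe's own level and the lowest level among probes well above background. Zfp37, a zinc finger protein, was higher at least 126-fold on the same basis (1.13, 1.09 and 1.24 in Dahl S, against -8.76, -8.84 and -4.79 in SHR, adjusted p = 0.000971).

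Dio1, the deiodinase that turns thyroxine into its active form, was at 5.14, 5.09 and 5.21 in Dahl S, against -1.55, -1.60 and -0.05 in SHR. All 6 arrays measured it well above background, and it was 74.1-fold higher in Dahl S (difference 6.21 ± 0.37, adjusted p = 5.2e-05). Slc17a3, a proximal tubule transporter of urate and other organic anions, was 21.6-fold higher (5.11, 4.99 and 4.96 in Dahl S, against 0.45, 0.28 and 1.02 in SHR, adjusted p = 6.85e-06). Ubd, a ubiquitin-like protein of the histocompatibility region, had a difference of 5.54 ± 0.44 and was well above background on 2 SHR arrays. Psmd8, a subunit of the proteasome cap, differed by 5.40 ± 0.37, Or2n1e, an olfactory receptor gene, by 5.35 ± 0.21 and MGC116197, with no usable spot on Dahl S replicate 1, by 4.55 ± 0.20, each also with 2 SHR arrays above background. Bcl9l, a coactivator of beta-catenin, differed by 4.55 ± 0.16, and Galnt13, which starts O-linked sugar chains, by 4.80 ± 0.66 with 1 SHR array above background. Akr1b7, an aldo-keto reductase also expressed in the adrenal cortex, was spread widely, at -1.49, 0.61 and -2.75 in Dahl S and -8.27, -4.28 and -4.66 in SHR (fitted difference 4.52 ± 1.16, adjusted p = 0.034), where 1 SHR array was well above background.

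Stbd1, which ties glycogen to membranes, was low on every Dahl S array and 39.0-fold lower than in SHR (-4.39, -4.35 and -4.44 in Dahl S, against 0.91, 1.09 and 0.68 in SHR, adjusted p = 3.55e-07). Ugt2a1, a glucuronosyltransferase, was well above background on no Dahl S array and at least 16.9-fold lower there. Areg, amphiregulin, a ligand of the EGF receptor, was 31.6-fold lower (-3.09, -3.63 and -3.88 in Dahl S, against 1.54, 1.54 and 1.27 in SHR, adjusted p = 9.67e-06). Dhx40, an RNA helicase, was at -2.08, -2.05 and -2.13 in Dahl S, against 1.53, 1.5 and 1.25 in SHR, and Nefh, a neurofilament subunit, at -2.49, -2.80 and -2.78, against 0.65, 0.67 and 1.07. Gapdh-ps1, a pseudogene that may share signal with its parent gene, differed by -4.35 ± 0.30.

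In the gene order of the reference, 6 of the 48 nearest tested neighbours passed the threshold, against 16.5% of all placed genes, and over all called genes 18.8% of neighbours were called. Ddx6, an RNA helicase of the messenger decay machinery, is the neighbour of Bcl9l and was at 1.36, 0.46 and 0.45 in Dahl S, against -2.43, -3.10 and -1.76 in SHR (difference 3.19 ± 0.38, adjusted p = 0.00134). Upp2, a uridine phosphorylase, lies next to Gapdh-ps1 and was at -1.12, -1.46 and -1.19 in Dahl S, against 0.88, 1.16 and 0.84 in SHR (difference -2.21 ± 0.14, adjusted p = 6.06e-05). The other called neighbours were Nr4a2 beside Galnt13 (1.08), Ggn beside Psmd8 (-0.80), Upk2 beside Bcl9l (-0.91) and Mthfd2l beside Areg (-0.55). Slc17a1 and Slc17a2, on either side of Slc17a3, had differences of 0.30 and -0.28 and did not pass.

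Interferons induce a common set of antiviral genes through a response element in their promoters. Of 42 tested interferon-induced genes, 4 were higher in Dahl S, 4 were lower and 34 did not pass, with a median difference of 0.12. The share was 9.52% in each direction, near the 7.67% and 8.8% of all genes. Ifit1, which binds foreign RNA ends, had levels of -7.53, -6.97 and -7.80 on the Dahl S arrays, none well above background, against -0.70, -0.40 and 0.23 on the SHR arrays. It was at least 67.1-fold lower in Dahl S (adjusted p = 7.96e-06). Dtx3l, a ubiquitin ligase, was at -3.89, -3.80 and -3.53 in Dahl S, against 2.41, 2.43 and 2.68 in SHR, and was 76.1-fold lower (difference -6.25 ± 0.13, adjusted p = 3.39e-07). The neighbours of both did not pass: Ifit3, beside Ifit1, differed by -0.40 ± 0.14 (adjusted p = 0.0947), and Parp9, the binding partner of Dtx3l and the gene beside it, by 0.14 ± 0.09 (adjusted p = 0.333).

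The promoters of Dtx3l, Ifit3 and Ifi27 are shown because they hold the same element while their genes were lower, not past the threshold and higher in Dahl S. They are RefSeq sequences on GRCr8, each from 250 bases before to 50 bases after the annotated start: chr11:78319975-78320274 for Dtx3l, chr1:241527076-241527375 for Ifit3 and chr6:128355062-128355361 for Ifi27, all on the plus strand. Capitals mark matches, on either strand, to the interferon-stimulated response element, searched as GAAA, any 2 bases and GAAA.
Dtx3l: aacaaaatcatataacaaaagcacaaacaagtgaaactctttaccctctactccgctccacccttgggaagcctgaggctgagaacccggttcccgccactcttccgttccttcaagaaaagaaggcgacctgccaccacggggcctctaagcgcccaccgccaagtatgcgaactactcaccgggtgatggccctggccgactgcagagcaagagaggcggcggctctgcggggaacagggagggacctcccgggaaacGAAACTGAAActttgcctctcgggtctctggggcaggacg
Ifit3: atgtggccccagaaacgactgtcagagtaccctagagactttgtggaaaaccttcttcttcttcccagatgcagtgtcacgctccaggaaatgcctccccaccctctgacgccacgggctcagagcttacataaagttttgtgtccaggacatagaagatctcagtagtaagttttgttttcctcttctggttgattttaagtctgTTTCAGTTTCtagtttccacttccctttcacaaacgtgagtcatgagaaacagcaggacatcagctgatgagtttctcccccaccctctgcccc
Ifi27: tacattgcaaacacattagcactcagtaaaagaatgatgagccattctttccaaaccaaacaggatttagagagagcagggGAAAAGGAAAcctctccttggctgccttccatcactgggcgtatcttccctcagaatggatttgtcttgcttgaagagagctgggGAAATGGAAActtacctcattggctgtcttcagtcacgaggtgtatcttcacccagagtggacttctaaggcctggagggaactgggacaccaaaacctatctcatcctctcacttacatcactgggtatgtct
The match begins 11 bases after the start in Dtx3l, at -44 in Ifit3, and at -169 and -84 in Ifi27. The element was found in 2 of 3 promoters of members higher in Dahl S, 1 of 2 lower and 17 of 27 that did not pass, among members with a listed promoter. It was found in 3.92% of all 33469 listed promoters and in 3.18% of those of tested genes. A match is a run of letters in the reference sequence and not evidence of binding, and these are not the strains' own sequences.

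The 4 members higher in Dahl S had differences of at most 1.09. Cxcl10 and Cxcl11, chemokines that draw activated T cells, differed by 1.09 ± 0.21 and 0.41 ± 0.11, Isg15, a ubiquitin-like modifier, by 0.81 ± 0.22 and Ifi27 by 0.90 ± 0.11. Mx2, a dynamin-like antiviral GTPase, was at -1.16, -1.01 and -0.97 in Dahl S, against 0.41, 0.74 and 0.04 in SHR (difference -1.44 ± 0.17, adjusted p = 0.00126), and Trim25, a ubiquitin ligase, differed by -0.84 ± 0.20. The regulator Irf7 differed by -0.12 ± 0.10 and did not pass.

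Histocompatibility genes were called in both directions. Of 36 tested members of antigen presentation, 5 (13.9%) were higher in Dahl S, 8 (22.2%) were lower and 23 did not pass. Over all genes the shares were 7.67% and 8.8%. Class II genes were among the higher: besides RT1-Bb, RT1-Db1, a beta chain, was at 4.45, 4.39 and 4.20 in Dahl S, against 2.73, 2.54 and 1.83 in SHR, and RT1-O1 differed by 2.35 ± 0.15. RT1-Da, the alpha partner of RT1-Db1, differed by -0.21 ± 0.18 and did not pass. Class I genes of the CE cluster were among the lower: RT1-CE15 was at 1.21, 1.15 and 1.33 in Dahl S, against 4.28 and 3.96 on SHR replicates 1 and 2, and RT1-CE5, RT1-CE3 and RT1-CE1 differed by -2.87 ± 0.19, -2.54 ± 0.16 and -2.22 ± 0.15. The RT1 genes are near copies that vary between strains, so signal can be shared between them and these values are uncertain as to the gene.

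Defining kidney markers were bright in both strains. Umod, made by the thick ascending limb, was at 8.02, 7.98 and 7.82 in Dahl S and 7.79, 8.08 and 8.43 in SHR (difference -0.16 ± 0.17), Lrp2, the endocytic receptor megalin, differed by 0.10 ± 0.11 and Slc34a1, the main phosphate cotransporter, by 0.11 ± 0.16. Of 21 proximal tubule genes, 6 (28.6%) were higher in Dahl S and 1 (4.76%) was lower, against 7.67% and 8.8% of all genes. The number higher was 10 when SHR replicate 3 was left out and 3 with slide as a random block. Slc4a4, the basolateral bicarbonate exit pathway, was at 2.71, 1.94 and 1.98 in Dahl S, against -0.95, -1.81 and -0.05 in SHR (difference 3.14 ± 0.41, adjusted p = 0.00215). Slc13a1, a sulfate transporter, and Slc5a1, a glucose transporter, differed by 0.91 ± 0.15 and 0.78 ± 0.10, while Slc9a3, the sodium-proton exchanger, was lower by a small amount (3.46, 3.37 and 3.57 in Dahl S, against 3.83, 3.94 and 3.84 in SHR, difference -0.40 ± 0.09, adjusted p = 0.0173).

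In the thick ascending limb, 2 of 11 genes were higher in Dahl S and 2 were lower (18.2% each way, against 7.67% and 8.8% of all genes). Casr, the calcium-sensing receptor that restrains salt uptake there, was at 3.99, 4.18 and 4.44 in Dahl S, against 3.11, 2.33 and 2.94 in SHR, and Cldn16, which opens the path for calcium and magnesium between cells, differed by 1.31 ± 0.15. The potassium channel Kcnj1, needed for salt uptake, differed by -0.47 ± 0.12. The cotransporter Slc12a1 was not analysed here. Of 29 calcium, phosphate, magnesium and vitamin D genes, 3 were higher and 4 were lower, and of 13 endothelium and smooth muscle genes, 2 were higher and 2 were lower.

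Of 24 distal tubule and collecting duct genes, 9 (37.5%) were lower in Dahl S, against 8.8% of all genes, 1 was higher and 14 did not pass, with a median difference of -0.39. Scnn1b, the beta subunit of the epithelial sodium channel, was at 0.36, 0.44 and 0.17 in Dahl S, against 1.65, 1.75 and 2.42 in SHR (difference -1.62 ± 0.20, adjusted p = 0.00156), and its alpha subunit Scnn1a differed by -1.12 ± 0.27. The vasopressin-regulated water channel Aqp2 was at 6.33, 6.13 and 6.51 in Dahl S, against 7.0, 6.74 and 7.01 in SHR, and Aqp4, its basolateral counterpart, differed by -1.48 ± 0.25, though a second Aqp4 probe gave -0.88 and did not pass (adjusted p = 0.168). Slc26a4, the chloride-bicarbonate exchanger pendrin, differed by -0.87 ± 0.17, and Nr3c2, the aldosterone receptor, by -0.38 ± 0.09. Trpv5, the calcium entry channel of the distal tubule, was at -4.84, -4.71 and -5.03 in Dahl S, against -2.37, -2.14 and -2.69 in SHR. In the other direction Sgk1, a kinase induced by aldosterone that keeps sodium channels in the membrane, was at 4.69, 4.85 and 4.80 in Dahl S, against 3.85 and 3.55 on SHR replicates 1 and 2 (difference 1.08 ± 0.15, adjusted p = 0.00468). The thiazide-sensitive cotransporter Slc12a3 (-0.30 ± 0.25) and Hsd11b2, which shields the aldosterone receptor from glucocorticoids (-0.09 ± 0.23), did not pass. The number lower in this list was 2 to 11 over the alternative settings, with 2 under slide as a random block or normexp background correction, 3 with Dahl S replicate 2 left out and 4 with Dahl S replicate 1 left out.

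**Figure D3:**
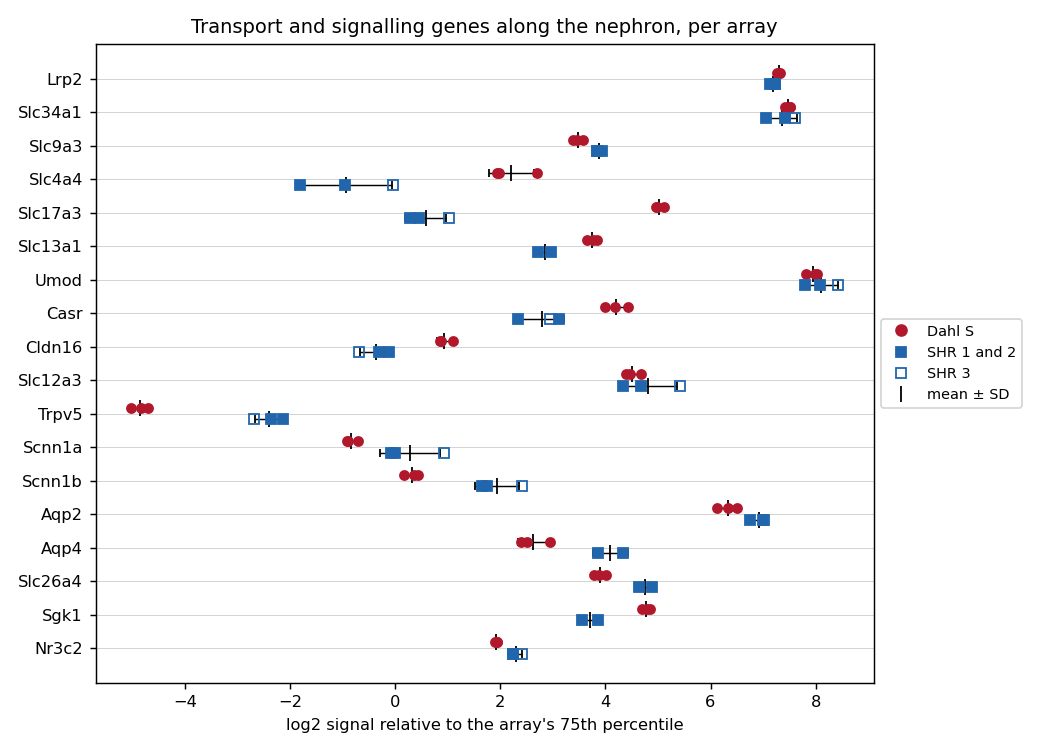
Level (log2 relative to the array's 75th percentile) of genes ordered from the proximal tubule (top) to the collecting duct and hormone signalling (bottom) on each Dahl S array (red circles) and SHR array (blue squares, SHR replicate 3 open where it has a usable spot), with mean ± SD. Slc17a3 and Slc4a4 lie far to the right in Dahl S, Trpv5, Scnn1b and Aqp4 lie to the left, and the strains lie close together for Lrp2 and Umod.

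Of 33 tested acid-base genes, 10 (30.3%) were lower in Dahl S and 3 (9.09%) were higher, against 8.8% and 7.67% of all genes. Among the higher were Slc4a4 and Car4, a membrane carbonic anhydrase (0.54 ± 0.12). Slc4a3, an anion exchanger, Rhcg, an ammonia channel of the collecting duct, and Slc4a11 differed by -0.86 ± 0.15, -0.68 ± 0.15 and -0.62 ± 0.14. Leaving out Dahl S replicate 2 left 1 lower, and leaving out Dahl S replicate 1 or SHR replicate 2 left 4. With slide as a random block, with normexp correction or with the percentile over unmarked spots 1 was lower, and with Dahl S replicate 3 left out 6 were, against 10. Of 38 potassium and chloride channel genes, 7 were lower and 3 higher, among them Kcnab1, a channel subunit (-0.99 ± 0.11), and Kcnmb4, a subunit of the large calcium-activated channel (1.16 ± 0.21).

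Of 14 podocyte genes, 2 (14.3%) were higher in Dahl S and 1 (7.14%) was lower, against 7.67% and 8.8% of all genes. Ptpro, a phosphatase of the podocyte surface, was at 2.23, 2.13 and 2.13 in Dahl S, and SHR replicate 3 (1.65) lay close to these while the other SHR arrays were at -0.88 and -0.95. Its difference was 2.23 ± 0.62 (adjusted p = 0.0452), and 3.08 without SHR replicate 3. Col4a4, a collagen chain of the filter, differed by 0.64 ± 0.13 and Podxl, the podocyte sialoprotein, by -0.61 ± 0.11. Nphs1, nephrin of the slit diaphragm, did not pass (-0.92 ± 0.38).

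In the renin-angiotensin system, 2 of 15 genes were higher in Dahl S and 2 were lower (13.3% each way, against 7.67% and 8.8% of all genes). Agt, the precursor of angiotensin, was at 2.27, 2.31 and 2.12 in Dahl S, against 1.02, 1.04 and 0.42 in SHR (difference 1.40 ± 0.17, adjusted p = 0.00156). Prcp, a peptidase that removes angiotensin, differed by 1.15 ± 0.29. Cma1, a mast cell chymase that can release angiotensin, was at -3.13, -3.92 and -4.31 in Dahl S, against -1.88, -1.40 and -1.16 in SHR, and Mas1, a receptor for a vasodilating angiotensin fragment, differed by -1.09 ± 0.25. The receptor gene Agtr1a differed by -0.22 ± 0.19 and did not pass.

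Among 26 genes of other pressor and vasodilator signals, 4 (15.4%) were higher in Dahl S and 6 (23.1%) were lower, against 7.67% and 8.8% of all genes. Prkg2, a cyclic GMP-dependent kinase, was at -3.46, -3.67 and -3.93 in Dahl S and well above background on 1 SHR array (-6.29, -8.16 and -4.61, adjusted p = 0.0462). Kng1, a kininogen, differed by 1.21 ± 0.21. Klk1, the kallikrein that frees kinins from it, was at 5.33, 5.38 and 5.45 in Dahl S, against 6.21 and 6.25 on SHR replicates 1 and 2 (difference -0.84 ± 0.13, adjusted p = 0.00745). Ednrb, the endothelin B receptor that promotes salt excretion, was at -0.33, -1.0 and -0.73 in Dahl S, against 1.05, 0.36 and 0.57 in SHR, and Edn1 itself did not pass (0.38 ± 0.16). Nos3, the endothelial nitric oxide synthase, was at -7.84, -0.47 and -0.45 in Dahl S and -0.19, 0.11 and 0.20 in SHR, and its fitted difference of -2.96 ± 1.76 (adjusted p = 0.284) was -0.51 without Dahl S replicate 1.

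Arachidonic acid is turned by cytochrome P450 enzymes into epoxides that relax vessels and reduce salt uptake, and soluble epoxide hydrolase removes them. Its gene Ephx2 was at -1.14, -1.25 and -1.04 in Dahl S, against 2.68 and 2.84 on SHR replicates 1 and 2, and was 14.9-fold lower (difference -3.90 ± 0.12, adjusted p = 6.85e-06). Of 19 genes of this pathway, 2 were higher in Dahl S and 4 were lower. The epoxygenase Cyp2c23 was at 5.20, 5.0 and 5.04 in Dahl S, against 4.59 and 4.33, and Alox15, a lipoxygenase, differed by 2.27 ± 0.36. The epoxygenases Cyp2j4 and Cyp2c11, of which Cyp2c11 is male-specific in rat liver, differed by -2.94 ± 0.23 and -2.59 ± 0.56, and Cyp4a8, which can make the vasoconstrictor 20-HETE, did not pass (-0.08 ± 0.17).

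Of 32 genes proposed as causes of hypertension in rat strains, 10 were higher in Dahl S, 2 were lower and 20 did not pass. The shares were 31.2% and 6.25%, against 7.67% and 8.8% of all genes. The median difference was 0.11, or 0.05 without SHR replicate 3. The number higher was 7 with slide as a random block and 4 as a fixed block. Many genes of this list were proposed from strains related to those studied here, so the list is not independent evidence of a direction. Cd36, a fatty acid translocase known to be defective in SHR lines, was at 1.74, 1.49 and 1.35 in Dahl S, against -1.40, -0.86 and -0.55 in SHR (difference 2.46 ± 0.22, adjusted p = 0.000299). Endog, a mitochondrial nuclease linked to heart mass in rats, was at 0.02, -0.05 and -0.06, against -2.03, -2.06 and -2.33 in SHR. Sorcs2, a sorting receptor, and Nr2f2, a nuclear receptor, differed by 1.98 ± 0.14 and 1.86 ± 0.26, Gstm1, a glutathione transferase, by 1.15 ± 0.17 and Resp18, a secretory granule protein, by 0.77 ± 0.19.

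Of 34 tubular injury genes, 10 were higher in Dahl S (29.4%, against 7.67% of all genes) and 2 were lower, and 8 were higher both with and without SHR replicate 3. The number higher was 6 with Dahl S replicate 3 left out, 5 and 6 of the 25 members tested with SHR replicate 1 or 2 left out, 5 with slide as a random block and 3 with slide as a fixed block. Havcr1, kidney injury molecule, was at 1.92, 1.37 and 0.69 in Dahl S, against -3.09, -3.10 and -3.16 in SHR, where 2 arrays were above background (difference 4.45 ± 0.29, adjusted p = 8.22e-05). Spp1, osteopontin, was at 7.37, 7.0 and 6.95 in Dahl S, against 5.78 and 5.99 on SHR replicates 1 and 2, and Cdkn1a, a cell cycle inhibitor, differed by 1.44 ± 0.20 and Clu, clusterin, by 0.80 ± 0.14. Lcn2, a lipocalin released by damaged tubules, passed with all arrays (1.39 ± 0.38, adjusted p = 0.0443) but not without SHR replicate 3 (1.00, adjusted p = 0.0503). Krt20 and Krt19, keratins, were lower (-1.39 ± 0.38 and -0.92 ± 0.17), though Krt20 differed by 0.35 under normexp background correction, and Kl, an antiageing hormone of the distal tubule, did not pass (0.32 ± 0.33).

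Of 42 chemokine and cytokine genes, 10 were higher in Dahl S (23.8%, against 7.67% of all genes) and 2 were lower. The number higher was 5, 5 and 6 with Dahl S replicate 1, 2 or 3 left out, 5 and 4 with SHR replicate 1 or 2 left out, and 4 with slide as a random block. Il33, an alarm cytokine of barrier cells, was at 4.79, 4.41 and 4.47 in Dahl S, against 0.71 and 0.99 on SHR replicates 1 and 2, and was 13.1-fold higher (adjusted p = 3e-05). Ccl2, which recruits monocytes, differed by 0.65 ± 0.15, while Ccl7 and Il18 differed by -1.40 ± 0.35 and -0.76 ± 0.11. Of 35 complement and coagulation genes, 7 were higher and 1 lower, with 11 and 5 when SHR replicate 3 was left out. Over all genes, 7.67% were higher and 8.8% lower. The number of complement and coagulation genes higher was 2 with normexp correction, the percentile over unmarked spots or slide as a fixed block. It was 4 with only the 6 arrays, 5 with slide as a random block and 11 with array quality weights. C3 was at 3.18, 2.90 and 3.07 in Dahl S, against 1.69, 1.88 and 2.04 in SHR, the near copies C4a and C4b differed by 1.5 ± 0.18 and 1.45 ± 0.28, and Fgg and Fgb, fibrinogen chains, by 1.32 ± 0.20 and 1.07 ± 0.20. Of 33 tested leukocyte markers, 8 (24.2%) were higher in Dahl S, 1 (3.03%) was lower and 24 did not pass, against 7.67% and 8.8% of all genes. The number of markers higher was 5, 4 and 5 with Dahl S replicate 1, 2 or 3 left out and 5 with slide as a random block. Their summed linear level over 28 markers was 56.2 to 65.4 in Dahl S and 42.3 to 47.6 in SHR. Over 32 markers on the 5 arrays other than SHR replicate 3 it was 158 to 178 in Dahl S, against 135 and 153 in SHR. Another 8 markers on the array, Cd5 among them, failed the filter on dim probes. Mrc1, a macrophage mannose receptor, was at 0.85, 0.29 and 0.49 in Dahl S, against -0.79, -0.77 and -0.68 in SHR, and Cx3cr1, the fractalkine receptor, differed by 0.80 ± 0.10. The part of leukocytes in the cytokine and complement results was not tested.

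Matrix genes were called higher in 5 of 27 and lower in 2. Dcn, decorin, a small proteoglycan that binds collagen, was at 5.62, 5.08 and 5.01 in Dahl S, against 3.59, 3.89 and 2.88 in SHR (difference 1.78 ± 0.27, adjusted p = 0.00436). Loxl2, a collagen cross-linking enzyme, was at 0.44, -0.24 and -0.11, against -1.92, -2.46 and -3.06 in SHR, and Mmp14, a membrane protease, differed by 1.47 ± 0.27. Postn, periostin, and Mmp9, a secreted protease, were lower (-1.53 ± 0.33 and -1.33 ± 0.20). In the EGF and growth factor list, 4 of 37 (10.8%) were lower, Areg among them, and 1 (2.7%) was higher, against 8.8% and 7.67% of all genes. Without SHR replicate 3, 7 were lower and 6 were higher. Egf itself was at 7.60, 7.70 and 7.74 in Dahl S and 7.78, 7.82 and 7.69 in SHR.

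Bile acid genes gave some of the largest differences although the list as a whole was called 4 times higher and 6 times lower among 29. The shares were 13.8% and 20.7%, against 7.67% and 8.8% of all genes. Nr1h4, the bile acid receptor FXR, was at -4.06, -4.27 and -4.99 in Dahl S, against 0.77, 0.80 and 1.27 in SHR, 41.9-fold lower (difference -5.39 ± 0.25, adjusted p = 1.46e-05). Cyp8b1, which commits bile acids to cholic acid in liver, was at -2.09, -2.04 and -2.03 in Dahl S, against 3.65 on both SHR replicates 1 and 2, 52.3-fold lower (-5.71 ± 0.23, adjusted p = 2.01e-05). Slc10a2, the sodium-dependent bile acid uptake transporter, went the other way, at 0.07 and 0.16 on Dahl S replicates 2 and 3, against -3.64, -3.65 and -4.67 in SHR, where 2 arrays were well above background (difference 4.10 ± 0.31, adjusted p = 0.000313). Lss, an enzyme of cholesterol synthesis, differed by 1.1 ± 0.15 and Abca1, a cholesterol exporter, by -1.07 ± 0.13.

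Of 49 fatty acid genes, 11 were lower in Dahl S (22.4%, against 8.8% of all genes) and 3 were higher. The number lower was 4 with Dahl S replicate 2 left out, 6 with Dahl S replicate 3 left out and 5 with slide as a random block, and of 26 members tested with SHR replicate 2 left out it was 4. Acox2, a peroxisomal oxidase of branched chains, was at 1.30, 1.36 and 1.28 in Dahl S, against 4.27, 4.29 and 4.46 in SHR, 8.15-fold lower (adjusted p = 3.41e-06). Acsm5, a medium-chain acyl-CoA synthetase, differed by -1.68 ± 0.17 and Acsm3, a relative first described for its expression in SHR kidney, by -0.90 ± 0.21. Ehhadh, a bifunctional enzyme of peroxisomal oxidation, differed by 0.93 ± 0.23. The mitochondrial enzymes Cpt1a and Acadm did not pass (0.04 ± 0.14 and -0.27 ± 0.13).

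Of the fat cell markers, 10 of 22 (45.5%) were lower in Dahl S and 1, Cd36, was higher, with a median of -0.81. The number lower was 6 and 4 of the 17 members tested with SHR replicate 1 or 2 left out, and 5 with slide as a random block. Their summed linear level, over 20 markers measured on the 5 arrays without SHR replicate 3, was 67.9 to 101 in Dahl S and 130 to 169 in SHR. Ucp1, the heat-producing protein of brown fat, was at 2.17, 2.07 and 1.43 in Dahl S, against 3.58 and 4.17 on SHR replicates 1 and 2 (difference -1.99 ± 0.29, adjusted p = 0.00879), and Lpl, lipoprotein lipase, and Scd, a fatty acid desaturase, differed by -1.69 ± 0.30 and -2.10 ± 0.49. Adipoq, adiponectin, was at 2.17, 1.46 and 1.28 in Dahl S and 1.94, 2.72 and 2.66 in SHR and did not pass, nor did Fabp4 (-0.88 ± 0.28). The part of fat tissue in the fatty acid and desaturase results was not tested. The number of fat cell genes lower was 3 to 15 over the alternative settings, with 3 under slide as a fixed block and 4 without SHR replicate 2. Over the 15 markers measured on all 6 arrays the sums overlapped, at 47.6 to 64.7 in Dahl S and 62.5 to 84.4 in SHR.

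Of 11 thyroid hormone genes, 3 were higher in Dahl S, Dio1 among them, and 1 was lower. Thra, a thyroid hormone receptor, differed by 3.35 ± 0.41 on its brighter probe, but a second probe gave 0.43 and did not pass (adjusted p = 0.573). Klf9, a transcription factor induced by the hormone, was at 1.02, 0.45 and 0.65 in Dahl S, against -1.38, -1.64 and -2.91 in SHR, and Thrsp, a hormone-responsive gene of lipid synthesis, was at 3.4, 2.74 and 2.40, against 4.48 and 4.46 on SHR replicates 1 and 2.

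The circadian clock runs on the activators Bmal1, Clock and Npas2 and on repressors they switch on, among them the Per genes and Nr1d1, which in turn represses Bmal1. Of 18 clock genes and outputs, 4 (22.2%) were higher in Dahl S and 6 (33.3%) were lower, against 7.67% and 8.8% of all genes. Bmal1 was at 3.12, 3.01 and 2.96 in Dahl S, against 1.55, 1.49 and 2.04 in SHR (difference 1.34 ± 0.17, adjusted p = 0.00171), and Npas2 differed by 0.83 ± 0.13. Nr1d1 was at 2.12, 2.12 and 2.35 in Dahl S, against 3.48, 3.91 and 4.37 in SHR (difference -1.73 ± 0.21, adjusted p = 0.00158), and its second probe gave -1.77. The strains did not overlap in any of these, as in 39.7% of all genes, and the activators Bmal1 and Npas2 lay opposite to the repressor Nr1d1. Clock was not among the called genes. Dbp, an output activator, was at 3.06, 2.90 and 3.19 in Dahl S, against 4.88, 5.04 and 5.28 in SHR, while Nfil3, which competes with it for the same sites, was at 1.63, 1.27 and 1.27, against -0.53, -0.49 and -0.72. Per3, Per2 and Tef, a relative of Dbp, differed by -1.89 ± 0.27, -0.90 ± 0.21 and -1.40 ± 0.26, and Bhlhe40, a repressor, by 1.15 ± 0.19. Per1 did not pass (-0.06 ± 0.18). Dahl R lay between the strains for Bmal1 (2.30), Nr1d1 (3.30), Dbp (4.30) and Nfil3 (-0.08). Since the labels give no hour of collection, a difference in clock genes between strains and one in collection hour cannot be told apart.

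**Figure D4:**
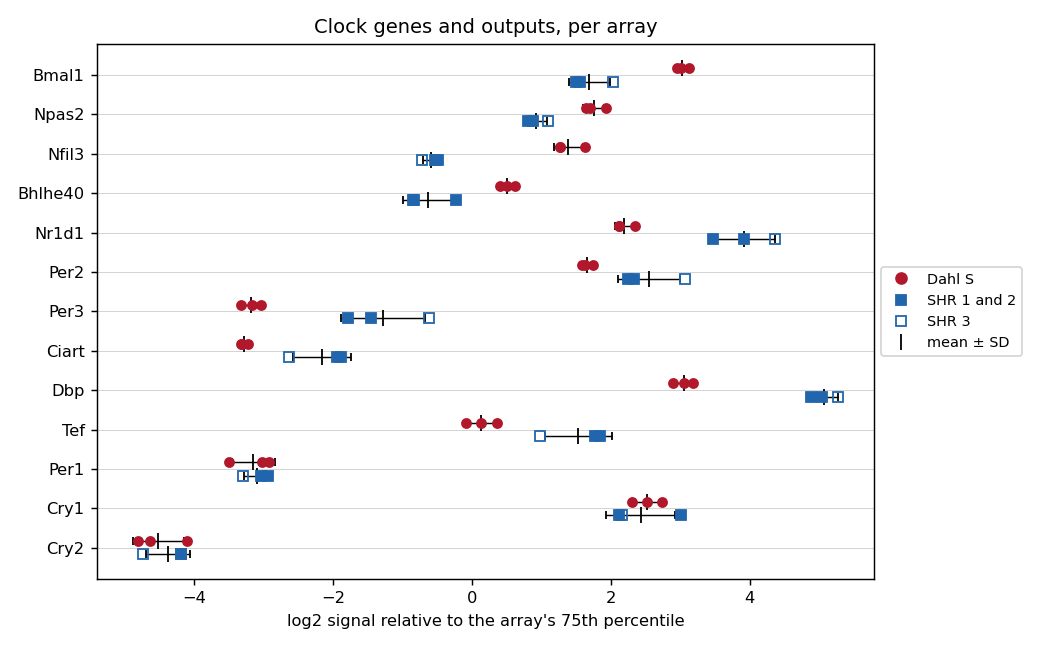
Level (log2 relative to the array's 75th percentile) of clock genes and outputs on each Dahl S array (red circles) and SHR array (blue squares, SHR replicate 3 open), with mean ± SD. Bmal1, Npas2, Nfil3 and Bhlhe40 lie to the right in Dahl S, Nr1d1, Per2, Per3, Ciart, Dbp and Tef lie to the left, and the strains overlap for Per1, Cry1 and Cry2.

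Promoters of clock genes that differed are shown with the elements through which clock proteins act. These motifs and genes, Ciart included, were chosen after the values were seen. Capitals mark the ROR element (TAGGTCA or TGGGTCA), bound by Nr1d1, in Bmal1, the E-box (CACGTG), bound by the activators, in Nr1d1 and Ciart, and the D-box (TTATGTAA or TTACGTAA), bound by Dbp, Tef and Nfil3, in Per2, on either strand and with no overlap between the motifs. The sequences are from RefSeq on GRCr8: chr1:176766078-176766377 on the plus strand for Bmal1, and, on the minus strand, chr10:84229405-84229704 for Nr1d1, which has a further listed start without an E-box, chr2:186112197-186112496 for Ciart and chr9:99496944-99497243 for Per2.
Bmal1: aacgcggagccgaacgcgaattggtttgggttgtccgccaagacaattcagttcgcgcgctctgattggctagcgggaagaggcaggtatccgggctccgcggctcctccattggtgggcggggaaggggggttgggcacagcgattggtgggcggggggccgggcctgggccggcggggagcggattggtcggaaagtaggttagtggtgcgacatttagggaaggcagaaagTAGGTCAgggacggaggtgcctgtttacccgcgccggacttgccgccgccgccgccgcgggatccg
Nr1d1: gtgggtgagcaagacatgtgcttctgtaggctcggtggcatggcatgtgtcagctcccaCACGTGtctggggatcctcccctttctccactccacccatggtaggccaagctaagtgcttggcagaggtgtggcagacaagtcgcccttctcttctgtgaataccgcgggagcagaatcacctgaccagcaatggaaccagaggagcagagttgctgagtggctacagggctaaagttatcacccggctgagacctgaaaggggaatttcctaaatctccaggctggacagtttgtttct
Ciart: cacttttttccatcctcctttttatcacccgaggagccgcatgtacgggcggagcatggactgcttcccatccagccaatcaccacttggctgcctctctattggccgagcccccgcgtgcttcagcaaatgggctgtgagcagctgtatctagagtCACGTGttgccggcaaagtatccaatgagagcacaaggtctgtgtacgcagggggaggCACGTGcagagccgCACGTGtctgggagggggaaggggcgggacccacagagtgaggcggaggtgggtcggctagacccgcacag
Per2: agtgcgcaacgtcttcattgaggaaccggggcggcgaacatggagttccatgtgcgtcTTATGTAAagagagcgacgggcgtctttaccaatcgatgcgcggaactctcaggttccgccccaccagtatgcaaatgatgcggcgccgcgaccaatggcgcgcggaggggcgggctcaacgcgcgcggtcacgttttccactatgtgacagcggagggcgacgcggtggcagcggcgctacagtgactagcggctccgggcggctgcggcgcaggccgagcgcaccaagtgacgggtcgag
The matches begin at -16 in Bmal1, -191 in Nr1d1, -93, -35 and -21 in Ciart, a repressor of the clock, and -192 in Per2. Among listed promoters of all genes, 6.60% hold the ROR element, 6.42% the E-box and 1.01% the D-box. Within the clock list the E-box was found in 1 of 4 promoters of genes higher in Dahl S, 3 of 7 lower and 0 of 7 that did not pass. Ciart was at -3.33, -3.32 and -3.22 in Dahl S, against -1.94, -1.89 and -2.64 in SHR (difference -1.13 ± 0.25, adjusted p = 0.0211).

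Of 23 red cell genes, 8 were higher in Dahl S (34.8%, against 7.67% of all genes) and 3 were lower. The number higher was 4, 4 and 5 with Dahl S replicate 1, 2 or 3 left out and 5 with slide as a random block. Hbb-bs, a beta-globin gene, was at 8.06, 8.02 and 7.89 in Dahl S, against 5.88, 5.29 and 6.45 in SHR (difference 2.12 ± 0.32, adjusted p = 0.00401), while its near copy Hbb was at 8.27, 7.99 and 7.93 in Dahl S and 7.82, 8.09 and 7.92 in SHR and overlapped, so the globin probes are uncertain as to the gene. Alas2, the red cell enzyme of haem synthesis, was at 4.59, 4.64 and 4.43, against 3.52, 2.76 and 3.74 in SHR, and Rhd, a red cell surface protein, and Epb42, a membrane protein, differed by 2.09 ± 0.31 and 1.65 ± 0.32. Epo, erythropoietin, made by kidney interstitial cells, was at -2.00, -2.06 and -2.27 in Dahl S, against -3.27, -2.74 and -3.76 in SHR (difference 1.15 ± 0.26, adjusted p = 0.0222). Fech, a haem enzyme, was lower (-1.07 ± 0.13). The alpha-globin genes Hba-a1 and Hba-a2 were on the array but did not enter the test. The summed linear level of 19 of the tested genes was 768 to 928 in Dahl S and 539 to 652 in SHR. This sum weighs the brightest probes most, the uncertain Hbb-bs among them, and is not a level of the list as a whole. The part of blood left in the tissue was not tested.

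Markers of other tissues that the samples could hold were also counted. Of 10 urothelium genes, 4 (40.0%, against 8.8% of all genes) were lower in Dahl S and 0 higher. The median difference of the list was 0.11, or -0.11 without SHR replicate 3, so the list as a whole was not lower. Upk1a was at -0.75, -0.90 and -0.88 in Dahl S, against -0.15, -0.11 and -0.22 in SHR. Upk1b and Upk2 differed by -0.78 ± 0.10 and -0.91 ± 0.14, while Upk3a did not pass (-0.02 ± 0.30). Of 12 skeletal muscle genes, 2 were higher, Casq1 (1.07 ± 0.16) and Acta1 (1.01 ± 0.15), with a summed level of 5.18 to 5.33 in Dahl S and 2.34 to 3.37 in SHR. The other 10 muscle genes did not pass, and the median difference of the list was 0.08. Another 6 muscle markers on the array, Ckm among them, did not enter the test. Of 11 hepatocyte genes, 2 were lower, Cyp2c11 and Apoh, which are also expressed in kidney, and Alb, albumin, did not pass (-0.42 ± 0.51). Of 9 adrenal cortex genes, Akr1b7 alone passed, and none was higher with Dahl S replicate 1 or 2 left out.

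Of 42 conjugating and other drug enzymes, 4 were higher in Dahl S and 6 lower: Ugt2b7 was at -0.03, 0.29 and 0.11 in Dahl S, against -2.62, -3.11 and -1.79 in SHR, Ces1e, a carboxylesterase, and Sult1c2, a sulfotransferase, differed by 2.17 ± 0.17 and 1.75 ± 0.12, and the P450 genes Cyp2d1 and Cyp2d5 by -1.76 ± 0.22 and -1.68 ± 0.15. Of 55 glutathione and antioxidant genes, 10 (18.2%) were higher and 7 (12.7%) lower, against 7.67% and 8.8% of all genes. These counts were 6 and 4, 4 and 1, and 7 and 1 with Dahl S replicate 1, 2 or 3 left out. They were 6 and 2 with SHR replicate 2 left out and 3 and 2 with slide as a random block. Gstt2 was at 3.54, 3.33 and 3.19, against 2.13, 2.21 and 0.75 in SHR, Xdh, which makes urate, differed by 1.29 ± 0.21, and Cat, catalase, by -0.43 ± 0.11. Of 39 organic ion and drug transporters, 4 were higher and 3 lower, and the main basolateral transporters Slc22a6 and Slc22a2 did not pass (0.38 ± 0.12 and 0.36 ± 0.42). Of 32 amino acid transporters, 5 were higher and 3 lower, among them Slc1a1, which takes up glutamate (1.75, 1.39 and 1.37 in Dahl S, against 0.05, 0.08 and 0.02 in SHR). Of 43 genes of glucose handling, 8 were lower (18.6%, against 8.8% of all genes) and 1 higher. The number lower was 3 with Dahl S replicate 2 left out, 5 with Dahl S replicate 1 or 3 or SHR replicate 2 left out and 2 with slide as a random block. Besides Stbd1, the glucose transporter Slc2a4 was at 0.69, 0.49 and 0.85, against 1.98, 1.85 and 2.12 in SHR, and the gluconeogenic enzymes Pck1 and G6pc1 did not pass (-0.33 ± 0.32 and 0.17 ± 0.22).

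Of 26 steroid genes, 4 were higher in Dahl S, Akr1b7 among them, and 1 was lower. Of 35 immediate early and heat shock genes, 7 were higher and 2 lower, but 3 were higher with Dahl S replicate 2 or 3 left out, 13 with SHR replicate 3 left out and 2 with slide as a random block. Dusp6, a phosphatase that shuts off ERK kinases, was at 1.75, 1.69 and 1.96, against -0.81, -0.88 and -1.22 in SHR (difference 2.77 ± 0.13, adjusted p = 1.69e-05), Atf3 and Nr4a2, transcription factors, differed by 1.13 ± 0.17 and 1.08 ± 0.19, and Fos, Jun and Egr1 did not pass. Ccnd2, a cyclin, was the larger of 2 differences among 27 proliferation genes (2.01 ± 0.15).

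Of 69 cytosolic ribosomal protein genes, 1 passed, Rpl19 (0.57 ± 0.10), with 6 higher when SHR replicate 3 was left out, and of 34 proteasome genes 2 passed, Psmd8 and Psma1 (0.42 ± 0.11). Of 65 respiratory chain genes, 3 were higher in Dahl S and 1 was lower. Ndufb2, a subunit of complex I, was at 5.91, 5.79 and 5.77 in Dahl S, against 4.03 and 3.69 on SHR replicates 1 and 2 (difference 1.96 ± 0.13, adjusted p = 0.000164), Ndufa10 and Cox5a differed by 1.39 ± 0.09 and 0.70 ± 0.11, and Ndufv1 by -0.45 ± 0.10.

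**Figure D5:**
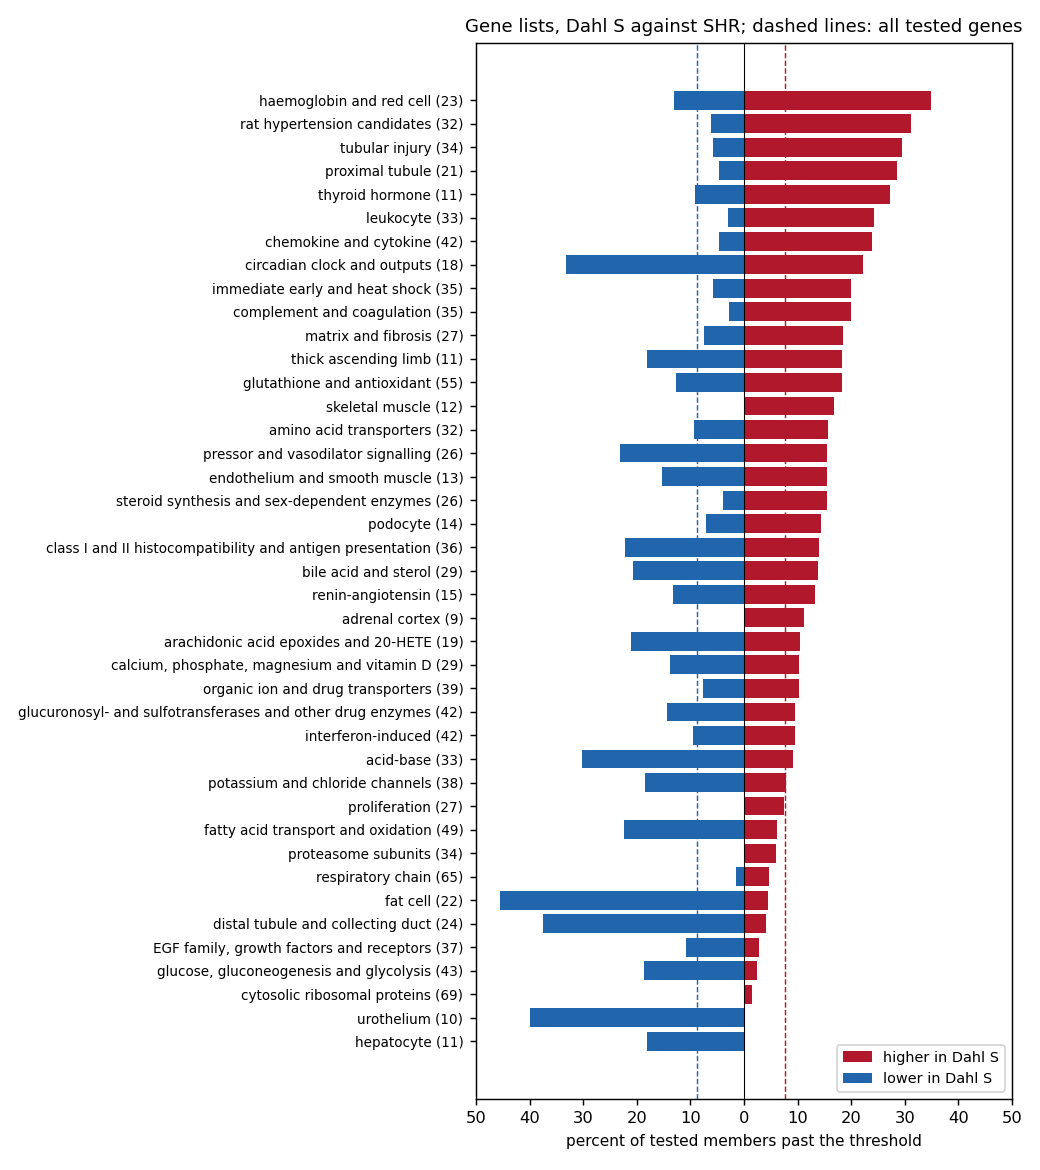
Percent of tested members of each gene list (number tested in brackets) higher in Dahl S (red, right of 0) and lower in Dahl S (blue, left of 0) at an adjusted p of 0.05, with dashed lines at the shares over all tested genes, 7.67% and 8.8%. Fat cell, urothelium, distal tubule and clock lists reach furthest to the left, and red cell, hypertension candidate, tubular injury and proximal tubule lists furthest to the right.

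Other counts also moved by more than 1.5 times when 1 array was left out. Amino acid transporters higher in Dahl S numbered 1 with any Dahl S array left out and 8 with SHR replicate 3 left out, against 5, and steroid genes higher numbered 1 with Dahl S replicate 1 or 2 left out, against 4. Potassium and chloride channel genes lower in Dahl S numbered 3 with Dahl S replicate 2 or 3 left out and 11 with SHR replicate 3 left out, against 7. Bile acid genes lower numbered 3 with Dahl S replicate 2 or SHR replicate 2 left out, and growth factor genes lower numbered 2 with the same arrays left out. Interferon-induced genes higher numbered 2 with Dahl S replicate 2 or 3 or SHR replicate 2 left out, against 4. Histocompatibility genes lower numbered 3 and 2 with SHR replicate 1 or 2 left out, when 28 and 27 members were tested, against 8. Pressor genes lower and drug enzymes lower each numbered 3 with Dahl S replicate 2 left out, against 6. Matrix genes higher numbered 3 with Dahl S replicate 1 or 3 left out, against 5, and organic ion transporters higher numbered 2 with the same arrays left out, against 4.

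Noncoding probes, named as in the files, were called about as often as coding probes: 728 of 4268 (17.1%), against 1893 of 11486 (16.5%), with 324 (7.59%) higher in Dahl S and 404 (9.47%) lower. Probes named MRAK were called in 18.9% of 1673, those named BC in 17.8% of 706, MRuc in 16.1% of 317, XR in 11.2% of 738 and probes of ultraconserved regions (uc.) in 14.9% of 195, the last with 24 higher in Dahl S and 5 lower. X83579 had levels of -0.51, -0.68 and -0.76 in Dahl S, against -8.46, -9.20 and -4.73 in SHR, and was at least 36.1-fold higher (adjusted p = 0.00357). BC105611, MRAK134201 and MRAK050663 were at least 45.3-fold, 32.4-fold and 12.7-fold higher, each with no SHR array above background, and MRuc008qku was at 1.05, 0.92 and 1.17, against -4.25, -4.57 and -4.53 in SHR, where 2 arrays were. U65217 was at -7.64, -8.76 and -7.92 in Dahl S, none above background, against 2.71 and 2.46 on SHR replicates 1 and 2, and was at least 521-fold lower (adjusted p = 1.06e-05). XR_007560 was at -0.91, -1.09 and -0.89 in Dahl S, against 4.36 and 4.09, and BC091258 at -2.97, -3.41 and -3.39, against 1.67, 1.99 and 1.55 in SHR. BC091362 and BC158675 differed by -5.15 ± 0.32 and -4.29 ± 0.23, each with 1 Dahl S array above background. Dahl R was near Dahl S for each of these 10 probes, for example at -0.74 for X83579 and -8.62 for U65217.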

How the data were processed

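Kidney RNA of 3 Dahl S and 3 SHR rats was compared. The submitters' processing notes name Agilent Feature Extraction 10.5.1.1 for the scanner files. These deposited intensities hold, per the file headers, a processed signal that was background-subtracted and detrended but not normalized between arrays, and the median spot and local background signals are uncorrected intensities. The authors also deposited processed values for 19407 probes, read here as log2 from their correlation with the scanner signals (r of 0.970 to 1.00) and used as an alternative, whose normalization is not given in the sources used here. The column medians of that table lay between 9.63 and 9.64, and its centring is unknown.

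Of 43553 spots, 1417 controls were left out. The log2 processed signal minus the log2 of the array's 75th percentile was used, spots with an outlier mark counted as missing, and repeated spots were averaged to 24684 probes. Probes entered if at least 0.5 of their spots were well above background on 3 or more of the 6 arrays and 2 arrays per strain were usable. Coding probes (15346) and noncoding probes (9338) were told apart by name, and 14266 coding and 20 noncoding probes matched a current symbol of the RefSeq table. The brightest tested probe stood for a gene. No spot was saturated (0 spots). Strains were compared with limma 3.58.1 in R 4.3.3 (lmFit, eBayes, all 9 arrays, strain only) and Benjamini-Hochberg adjustment over all tested probes. On simulated data for this comparison with 15754 probes, 48 of 100 changes of log2 1 and 93 of 100 of log2 3 were recovered, with 9 false calls. The simulation drew independent noise with the same spread for a probe on all 9 arrays. It held no slide effect and no raised background on SHR replicate 3, so these counts need not hold for the real arrays. The small number of arrays limits the precision.

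The 41 gene lists and the rules for named genes (the 12 largest genes and 5 noncoding probes per direction, up to 4 list members per direction, and set genes of each list) were chosen with earlier results of these data known. Slides were inferred from shared scan times. The files hold no mean signal column, so normexp correction used the median signals.

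The number shared by a Dahl S and an SHR array does not pair them: the correlations of their deviations were -0.02, -0.03 and -0.06. The alternatives were other background corrections, scalings, filters and models, and leaving out arrays. Some genes of these lists are not reported here.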

Additional observations from a re-analysis of the deposited data

How the results depend on the processing

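With the same test, the number of probes past the threshold (2621, 45.4% higher in Dahl S) was 608 (68.8% higher) with normexp correction, 655 with the percentile over spots without an outlier mark, 865 (61.2% higher) with slide as a fixed block, which joins the strains only through Dahl R and loses SHR replicate 3, 1306 with slide as a random block, 1188 with only the 6 arrays, 1483 with no filter on dim probes and 4760 with array quality weights. Leaving out 1 array gave 1357 to 4306, of which 1357 (56.2% higher) when Dahl S replicate 2 was absent, 1573 when Dahl S replicate 3 was and 4306 when SHR replicate 3 was. With Dahl S replicate 1 left out together with SHR replicate 3, a setting added after seeing the data, it was 4363. The replicate block gave 1984, of which 1911 were also called without it, and every pairing correlation was under 0.1. Quantile normalization, the authors' processed values, the filter on all 6 arrays and kept outlier spots gave 2462, 2038, 2100 and 2443. Of the 2621 probes, those tested kept their direction in all settings that only left out arrays or changed the model, except 1 probe with slide as a fixed block. The percentile over unmarked spots moved the median of all genes to -0.36. Of the 24 largest genes, 21 to 24 passed in each setting, except 13 with the filter on all 6 arrays, which leaves the others out. Under normexp 2346 of the 2621 probes kept their direction. With quantile normalization 2555 did, and with the authors' processed values 2548 of 2619 tested. Among genes picked by the naming rules, the differences turned under normexp for Krt20 (0.35), Ppara (0.32), Gsta6 (0.073), Slc29a2 (0.53), Slc43a3 (0.43), Trpv6 (0.065), Clca4l (0.18) and Kcnab2 (0.44). They turned for Slc29a2 and Slc43a3 with quantile normalization (0.37 and 0.24) and the authors' processed values (0.39 and 0.23), for Hspb1 with the authors' processed values (-0.038) and with kept outlier spots (-0.064), for Acot1 with the percentile over unmarked spots (-0.032) and for Slc22a2 without both arrays (-0.33, and -0.21 to 0.67 over the settings that left out 1 array). The cause was not tested.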
